A study of Cicer arietinum with 24 samples.

Results

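Late maturation genes of chickpea seed were examined as the 300 genes, of 25111 with a single gene identifier, whose transcripts at the last 2 of 7 seed stages (S6 and S7) stood furthest above their levels at every earlier stage and in leaf. The genes were chosen by their measured levels. For each gene the largest log2(FPKM + 1) among S1 to S5 and leaf was subtracted from the smaller of the S7 and S6 values, and this difference is called the score. FPKM is the number of sequenced fragments per kilobase of exon, scaled to the total mapped. Genes with a score of at least 2, at least 20 FPKM at both S6 and S7 and a value other than 0 at S5 qualified. They numbered 512, and the 300 with the highest scores were kept.

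The RNA came from the large-seeded chickpea (Cicer arietinum) cultivar JGK3, grown in the field with no treatment, as 24 samples in 8 groups of 3. The groups were whole seeds at early, mid and late embryogenesis (S1, S2 and S3), at mid-maturation (S5), at late maturation (S7) and at the stages S4 and S6 that lie between them, and leaves taken when seeds were at mid-maturation. Only 1 pooled FPKM value per gene and group was deposited. The spread between the 3 samples of a group is therefore unknown, no difference below was tested, and changes are counted past a limit of 2-fold on log2(FPKM + 1) where a gene reached 1 FPKM at either stage. Because seeds were taken whole, more cells of one type and more RNA per cell cannot be told apart.

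A maturing legume seed first fills with storage protein, starch and oil, and then prepares to dry and rest. In this last phase seeds of many species accumulate transcripts of late embryogenesis abundant proteins, small heat shock proteins and enzymes of raffinose sugar synthesis, which protect membranes and proteins in the dry state, under control of the hormone abscisic acid. The deposited identifiers carry no gene names, and none of them matched the reference gene table used here, so the genes below are given by identifier and no role is assigned to any of them beyond the process lists of the study.

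The 300 genes were low before S6 relative to their own late level and to other genes expressed late, not low among all genes. Their median level was 4.36, 6.80, 4.35, 6.19, 15.5, 289.9 and 342.9 FPKM at S1 to S7, and 4.81 FPKM in leaf. The medians of all genes at S1 to S3, 2.73, 3.02 and 2.90 FPKM, were below theirs. The 5629 genes with at least 20 FPKM at S6 and S7 had higher medians, 30.5, 32.3, 29.3, 30.7 and 34.9 FPKM at S1 to S5. The quartiles of the 300 were 3.56 and 45.5 FPKM at S5, 114 and 1109 FPKM at S6, and 123 and 1143 FPKM at S7. The rule fixed the low and the high side of this pattern, but not its height. Levels ran between 20.7 and 271919 FPKM at S7 and between 20.3 and 215672 FPKM at S6, and 75 genes had at least 1000 FPKM at both. The S7 level was 5.89 to 2949 times the S5 level, with a median of 20.8, and the S6 level was 5.77 to 3010 times the S5 level, with a median of 19.8. At S6, 223 genes stood at 10 or more times their S5 level, 57 at 100 or more times and 10 at 1000 or more times. All 300 genes were at least 2-fold higher at S7 than at S5 because the rule required it, and 26.5% of the 14653 genes measured at either stage were.

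**Figure D1:**
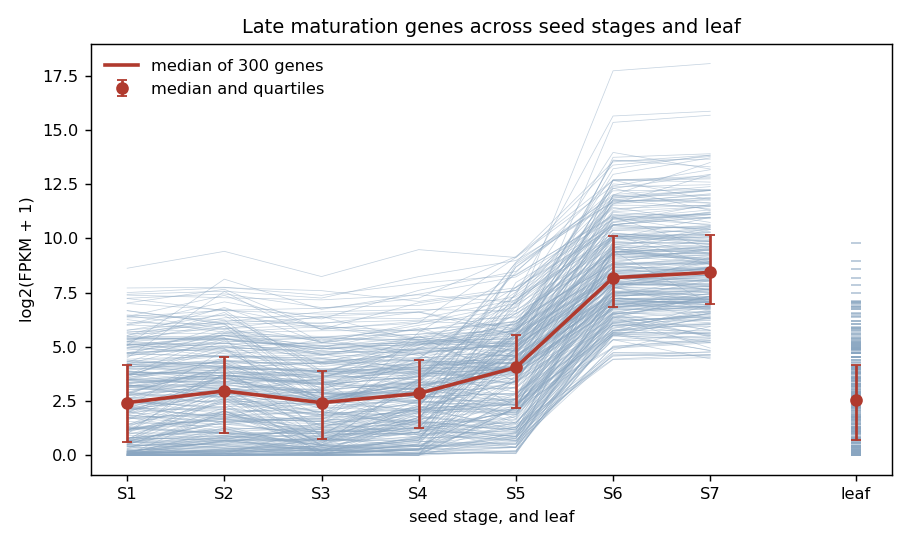
Level of each of the 300 late maturation genes (thin lines for seed stages S1 to S7, ticks for leaf), as log2(FPKM + 1) on the vertical axis. Points and bars give the median and quartiles over the genes, not over samples, and the median stays between 4.35 and 15.5 FPKM up to S5 before reaching 289.9 FPKM at S6 and 342.9 FPKM at S7.

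The number of genes taken in depended on how the groups were scaled against each other. The summed FPKM of all genes was lowest at S2 with 673444, and it was 1089595 at S5, 1940712 at S6 and 2016862 at S7. With every group scaled to the same sum 180 genes qualified, all of them among the 300, and with every group scaled to the same upper quartile 291 did, of which 275 were among the 300. The limit of 300 fell in a continuous range of scores. The last gene inside, Ca_06891, had 11.99, 77.9 and 97.7 FPKM at S5 to S7 and 13.0 FPKM in leaf, and the first outside, Ca_02889, had 128, 804 and 728 FPKM at S5 to S7 and 23.2 FPKM in leaf. The 212 genes left outside had medians of 16.4, 116 and 125 FPKM at S5 to S7.

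A few of these genes held a large share of the summed FPKM of the 25111 genes in the late seed. Entries that join several identifiers, carry none or repeat one are not in that sum. The 300 genes made up 0.549% to 1.03% of the summed FPKM at S1 to S4, 1.37% at S5, 33.7% at S6, 38.1% at S7 and 0.670% in leaf. One gene, Ca_06877, was the most abundant of them, with 3.49, 6.19, 0.389, 10.6, 92.2, 215672 and 271919 FPKM at S1 to S7 and 388 FPKM in leaf. It alone took 13.5% of the sum at S7 and 11.1% at S6, and without it the rest of the set took 24.6% at S7 and 22.6% at S6. Its leaf level was also above every seed stage up to S5. The 10 genes with the highest S7 levels together held 62.5% of the FPKM of the 300 at S7 and 57.8% at S6. Of the 100 most abundant genes of each group, 0 at S5, 40 at S6 and 43 at S7 belonged to the set.

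**Figure D2:**
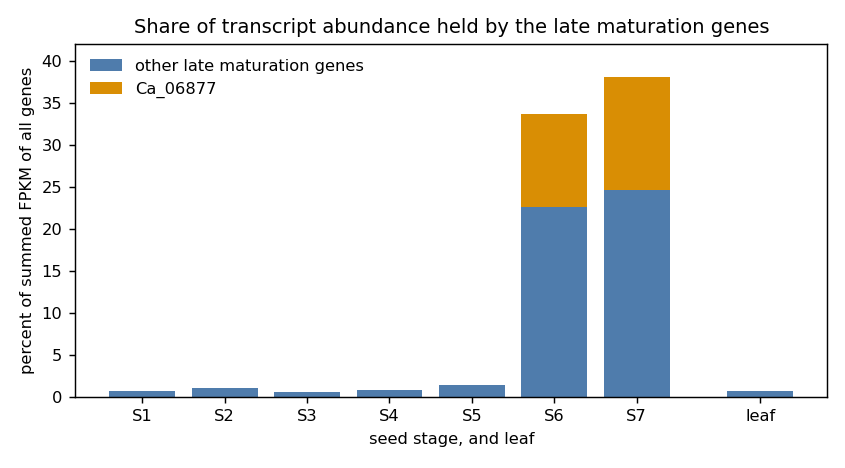
Percent of the summed FPKM of all 25111 genes held by the late maturation genes at each seed stage and in leaf (vertical axis, starting at 0), with Ca_06877 in a separate colour. The bars reach 33.7% at S6 and 38.1% at S7 and stay at or below 1.37% elsewhere.

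The highest score was that of Ca_17852, which had 0.405, 0.412, 0.483, 4.94, 24.3, 41521 and 52177 FPKM at S1 to S7 and 0.120 FPKM in leaf. Its S7 level was 2145 times its S5 level. Ca_09330, second by score, had 0.439, 1.55, 0.155, 0.764, 23.2, 13603 and 15240 FPKM at S1 to S7 and 1.19 FPKM in leaf. Ca_18854 was listed at 0 at S1, S2 and S3, and had 0.0353, 10.04, 6670 and 6156 FPKM at S4 to S7 and 4.10 FPKM in leaf. In these 3 genes S5 was the highest seed stage before S6, yet far below it. Ca_18289 ran higher throughout, with 0.986, 16.9, 4.56, 9.79, 167, 50924 and 59236 FPKM at S1 to S7 and 34.8 FPKM in leaf. Ca_21274 had 1.18, 7.10, 3.90, 9.79, 44.8, 12178 and 12831 FPKM at S1 to S7 and 0.301 FPKM in leaf, and Ca_25097 had 0.406, 2.75, 0.911, 8.05, 14.4, 5020 and 7899 FPKM, with 0.811 FPKM in leaf. Ca_12848, among the 5 most abundant at S7, had 56.6, 9434 and 14583 FPKM at S5 to S7 and 11.7 FPKM in leaf.

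Another 3 of the 10 highest scores belonged to genes that were under 1 FPKM in every earlier group. Ca_02432 had 0.151, 0.110, 0.661, 0.576, 0.300, 904 and 857 FPKM at S1 to S7 and 0.637 FPKM in leaf. Ca_04147 was listed at 0 at S1 and S2 and had 0.370, 0.146, 0.424, 656 and 966 FPKM at S3 to S7 and 0.145 FPKM in leaf. Ca_05180 had 0.0490, 0.158, 0.0849, 0.220, 0.845, 835 and 704 FPKM at S1 to S7 and 0.188 FPKM in leaf. These were the 3 highest scores among the 15 genes (5%) that stayed under 1 FPKM in leaf and at every stage from S1 to S5. Most of the set was detected earlier than that. Before S6, 205 genes (68.3%) reached 10 FPKM in at least 1 seed stage or leaf and 49 reached 100 FPKM, and 165 genes (55%) had at least 1 FPKM in all 8 groups. The rule set a ceiling on these earlier levels, and the same counts were not made over other genes. A value of exactly 0 stood in at least 1 group for 29 genes. A level of 0 in these files can be a failed estimate as well as an undetected transcript.

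**Figure D3:**
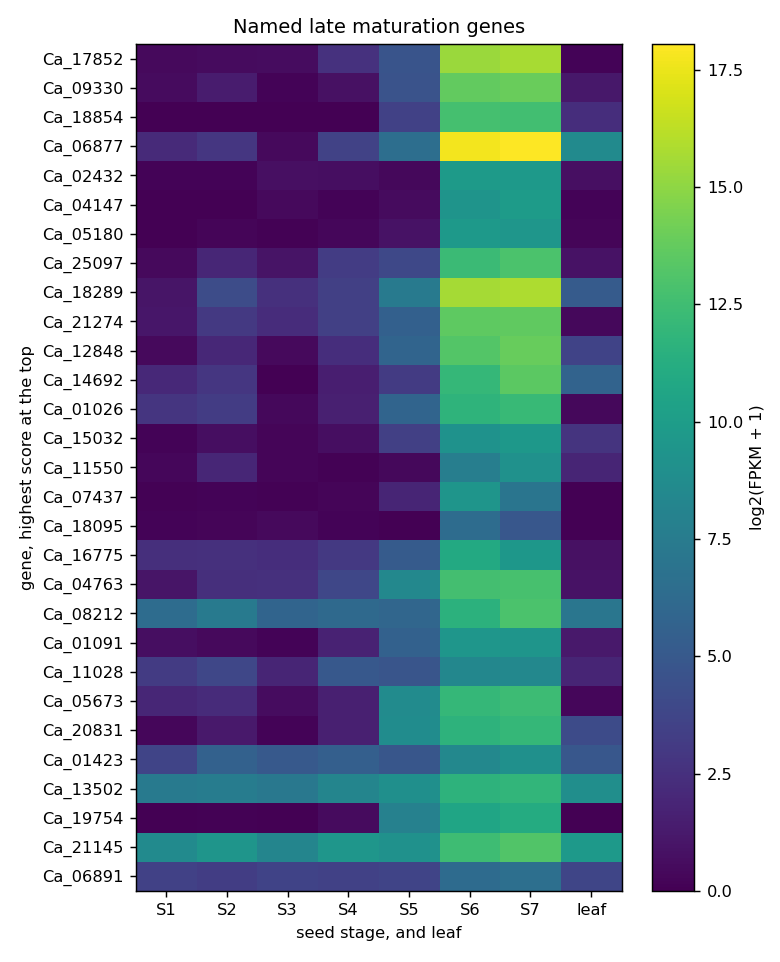
Levels of the 29 late maturation genes named by rule, as log2(FPKM + 1) in colour, with seed stages S1 to S7 and leaf across and genes down in order of score. In every row S6 and S7 are brighter than all other columns, and Ca_21145, Ca_13502 and Ca_08212 also stand out at S1 to S5 and in leaf.

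The stage that came closest to the late level was S5 for 142 genes (47.3%). Leaf came closest for 63 genes (21%), S2 for 39, S4 for 25, S1 for 21 and S3 for 10. This was not counted over other genes, so these shares only describe the set. The rule set a ceiling on S5 and S4 alike, but it left out genes at 0 at S5 and kept those at 0 at S4. Of the 300, 5 were at 0 at S4. Genes left out include Ca_07751, Ca_06965 and Ca_06966, with 13.0, 47.8 and 1887 FPKM at S4. Their scores were above that of the last gene inside, so they would have been counted as lower at S5. Between S4 and S5, 100 of the 274 genes measured at either stage were higher at S5 (36.5%) and 9 were lower (3.28%). Over all 14912 genes measured, 8.38% were higher and 10.9% were lower. Among the 5582 such genes that had at least 20 FPKM at both S6 and S7, 9.08% were higher and 3.89% were lower. Of the 212 genes that met the rule outside the 300, 209 were measured, with 20 higher (9.57%) and 3 lower (1.44%). The larger share was thus found in the 300 with the highest scores and not in the rest that met the rule. The median difference on the log2(FPKM + 1) scale, S5 minus S4, was 0.57 for the late maturation genes and −0.02 over all genes. With groups scaled to the same sum the median of all genes moved to −0.42 and that of the same 300 genes to 0.19, and 85 of the 278 then measured were higher at S5 (30.6%), beside 5.03% of all genes. Restricted to the 238 that already had 1 FPKM at S4, 71 were higher at S5 (29.8%), beside 8.38% of the 5524 genes with 20 FPKM at S6 and S7 and 1 FPKM at S4.

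**Figure D4:**
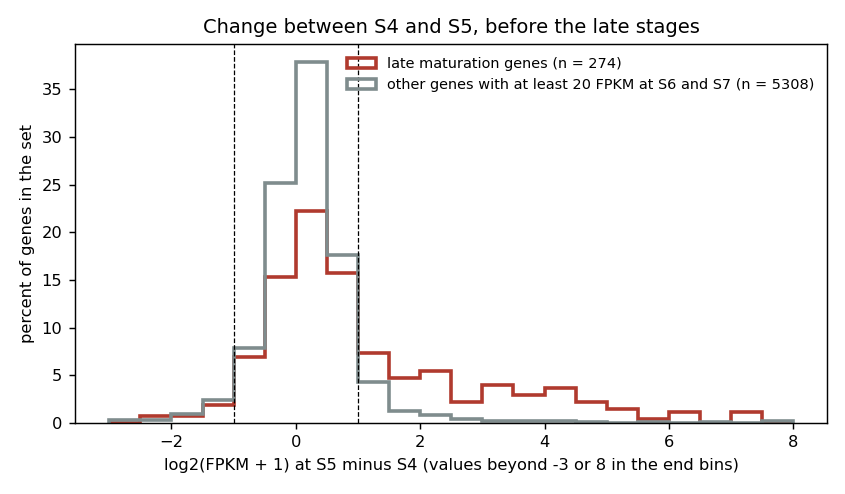
Distribution of the difference in log2(FPKM + 1), S5 minus S4, for 274 late maturation genes and 5308 other genes with at least 20 FPKM at S6 and S7, as percent of each set on the vertical axis. Dashed lines mark 2-fold, and 36.5% of the late maturation genes lie to the right of them.

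The largest differences, S5 minus S4, were of transcripts at very low levels at S4. Ca_19754 had 0.444, 248, 1579 and 2169 FPKM at S4 to S7. Ca_20831 had 2.07, 444, 3282 and 4077 FPKM at S4 to S7. Ca_05673 had 2.05, 411, 4123 and 5336 FPKM at S4 to S7. On the log2(FPKM + 1) scale the differences, S5 minus S4, were 7.43, 7.18 and 7.08, larger than the further differences of these genes between the late stages and S5.

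The 100 genes that were higher at S5 had higher median levels at S6 and S7 and a lower one in leaf than the 191 that were within 2-fold or under 1 FPKM at both stages. The medians of the 100 were 3.01, 34.0, 982 and 918 FPKM at S4 to S7 and 1.11 FPKM in leaf, where 49 of them were under 1 FPKM. Those of the 191 were 8.98, 10.5, 178 and 196 FPKM at S4 to S7 and 8.20 FPKM in leaf, where 37 were under 1 FPKM. The rule required late levels well above S5. The higher levels of the 100 at S6 and S7 therefore follow in part from their higher S5 level. The 9 genes that were lower at S5 had medians of 25.4, 4.18, 645 and 1349 FPKM at S4 to S7. The largest difference among them was in Ca_14189, named after its values were seen, with 25.4, 3.73, 645 and 1349 FPKM at S4 to S7. Across the 300 genes, log2 levels correlated between S5 and S4 with Pearson r = 0.670 and Spearman rho = 0.661, and between S6 and S5 with r = 0.707 and rho = 0.736. The rule required S6 well above S5, so the correlation between these stages follows in part from the choice. These are descriptions over genes that share the same pooled libraries, and genes are not independent replicates.

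Smaller differences stood at the embryogenesis stages. At S2, 43 of 228 measured genes were higher than at S1 (18.9%) and 1 was lower, beside 8.82% higher and 5.9% lower over all genes. At S3, 53 of 234 were lower than at S2 (22.6%) and 2 were higher, beside 7.32% lower and 4.54% higher over all genes. At S4, 50 of 242 were higher than at S3 (20.7%) and 3 were lower, beside 7.55% higher and 6.93% lower over all genes. Of the measured genes that met the rule outside the 300, 7.88% were higher at S2 and 2.46% lower. At S3 9.31% of them were lower and 0.980% higher, and at S4 9.41% were higher and 0.990% lower. In the set high from S5 on, given below, 31.5% were higher at S2 and 7.41% lower. At S3 20.3% of that set were lower and 10.2% higher, and at S4 65.1% were higher and 0% lower. These differences were therefore not particular to the 300. The first pair of steps shares the S2 library pool and the second pair shares the S3 pool, so a shift of one pool would enter both counts of a pair. The steps from S1 to S2 and from S4 to S5 share none, and 16 genes were higher in both. They were 37.2% of the 43, near the 36.5% of all measured late maturation genes that were higher at S5, and 16% of the 100, beside the 18.9% higher at S2. An example with its own maximum before S5 at S2 is Ca_18289, described above, with 0.986, 16.9 and 4.56 FPKM at S1 to S3. Ca_08450, named after its values were seen, had 0.595, 5.15 and 0.950 FPKM at S1 to S3, 12450 FPKM at S6 and 10031 FPKM at S7. These levels are low, and all 3 counts depended on the constant added before taking logarithms. With 5 FPKM in place of 1 and the same 300 genes, 19 were higher at S2 than at S1, 32 were lower at S3 than at S2 and 18 were higher at S4 than at S3. With groups scaled to the same sum, 72 were higher at S2 than at S1. The summed FPKM of all genes was lowest at S2, so such scaling raises S2 levels of genes in general. Shares over all genes were not computed for these settings, and nothing is read from the change in counts beyond their dependence on processing.

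Leaf was not free of these transcripts. In leaf 213 of the 300 genes had at least 1 FPKM, beside 13608 of all 25111 genes. Of the 5629 genes with at least 20 FPKM at S6 and S7, 5439 did. The rule set a ceiling on leaf for the 300, so their less frequent detection there follows in part from the choice. Among the 300, 18 genes stood at least 2-fold above every seed stage from S1 to S5, a count not made over all genes. The highest leaf level was that of Ca_21145, with 867 FPKM in leaf and 392, 673, 300.2, 711, 553, 5459 and 9148 FPKM at S1 to S7. Ca_13502 had 488 FPKM in leaf and 170, 188, 151, 299.96, 501, 3259 and 3691 FPKM at S1 to S7. Both were expressed in every group, and their late seed level was the top of a range and not a first appearance. Levels at S7 and in leaf were only loosely related over the 300 genes, with r = 0.268 and rho = 0.241. The rule required S7 well above leaf, so these values too depend in part on the choice.

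The rule ranked genes by the smaller of their S7 and S6 levels, so genes high at only 1 of these stages were selected against, and the counts between S7 and S6 are a description of the chosen genes. Of the 300, 286 were within 2-fold, 7 were higher at S7 (2.33%) and 7 were lower (2.33%). Over all 12561 genes measured at either stage 1.36% were higher and 3.69% were lower, and over the 5629 genes with at least 20 FPKM at both 0.586% were higher and 1.78% were lower. These other genes were not chosen on both stages, and nothing is read from the difference in shares. The median difference, S7 minus S6, was 0.09 on the log2(FPKM + 1) scale for the late maturation genes and 0.03 over all genes. The S7 value was above the S6 value in 184 genes (61.3%), beside 54.1% of the 5629. Across the 300 genes S7 and S6 log2 levels correlated with r = 0.979 and rho = 0.976, and this too follows in part from the choice on both stages.

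**Figure D5:**
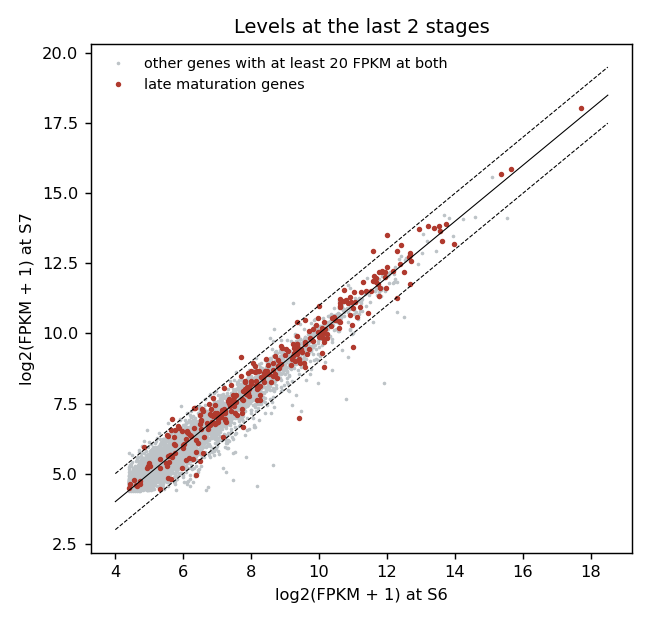
Level at S7 (vertical) against S6 (horizontal), as log2(FPKM + 1), for late maturation genes and for other genes with at least 20 FPKM at both stages. The solid line marks equal levels and the dashed lines 2-fold, beyond which 7 late maturation genes lie on each side.

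Some genes were still higher at S7. Ca_14692 had 11538 FPKM at S7 and 4073 FPKM at S6, a difference of 1.502 on the log2(FPKM + 1) scale, beside 7.997 FPKM at S5 and 52.0 FPKM in leaf. Ca_11550 had 566 FPKM at S7 and 206 FPKM at S6, a difference of 1.45, and its S5 level was 0.282 FPKM. Ca_08212 had 7790 FPKM at S7 and 3070 FPKM at S6, a difference of 1.34, and was present at 54.5 to 164 FPKM at every earlier stage. Other genes were highest at S6. Ca_07437 had 126 FPKM at S7 and 674 FPKM at S6, a difference of −2.41 and the only one past 4-fold in either direction. Ca_16775 had 735 FPKM at S7 and 2025 FPKM at S6, a difference of −1.46, and Ca_18095 had 29.6 FPKM at S7 and 82.4 FPKM at S6, a difference of −1.45. These last 3 genes were each under 1 FPKM in leaf.

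The study grouped genes by their annotated processes, and 27 of the 300 genes (9%) stood in at least 1 of its 4 lists for desiccation, grain filling, differentiation and cell cycle, beside 5.06% of all genes. Part of these lists was chosen on the same samples, so membership is not independent evidence of direction. The desiccation list held 7 of the genes (2.33%), beside 0.621% of all genes and 1.57% of the 3888 genes that were at least 2-fold higher at S7 than at S5. As a whole that list differed both ways, with 61 of its 126 measured genes higher at S7 than at S5 and 41 lower. The grain filling list held 4 of the genes (1.33%), beside 0.613% of all genes and 0.720% of those higher at S7. The list as a whole was more often lower, with 28 of 135 measured genes higher at S7 than at S5 and 68 lower. The differentiation list held 16 of the genes (5.33%), beside 3.01% of all genes and 4.71% of those higher at S7, and 183 of its 588 measured genes were higher at S7 than at S5 and 192 lower. The cell cycle list held 2, Ca_27517 and Ca_10719 (0.667%), beside 1.22% of all genes, and 47 of its 236 measured genes were higher at S7 than at S5 and 95 lower. No list accounted for most of the set, and 273 genes were in none of the 4. In a similar set high from S5 on, given below, the desiccation, grain filling and differentiation shares were larger.

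The desiccation genes differed in their levels before S6. Ca_15032 had 0.122, 0.569, 0.166, 0.612, 9.93, 595 and 779 FPKM at S1 to S7 and 5.51 FPKM in leaf. Ca_04763 had 1.06, 4.46, 4.70, 13.5, 342, 6559 and 7080 FPKM, with 0.847 FPKM in leaf, and was the most abundant of the 7 at S7. Ca_01091, which the grain filling list also held, had 0.583, 0.349, 0.150, 2.36, 47.7, 709 and 698 FPKM, with 1.34 FPKM in leaf. Together with Ca_19754 and Ca_08827 these made 5 desiccation genes that were already past 2-fold at S5 over S4. The remaining pair was present at every earlier stage without that difference. Ca_11028 had 7.68, 13.0, 2.59, 30.3, 26.7, 325 and 337 FPKM at S1 to S7 and 2.61 FPKM in leaf, and Ca_01423 had 11.8, 48.0, 31.2, 42.9, 27.2, 346 and 538 FPKM, with 28.5 FPKM in leaf. Of the grain filling genes, Ca_02432 was under 1 FPKM up to S5, as given above, whereas Ca_01026 had 5.93, 8.15, 0.334, 2.05, 54.9, 3489 and 4698 FPKM at S1 to S7 and 0.293 FPKM in leaf. Ca_08827 was in both lists, with 47.0, 284 and 399 FPKM at S5 to S7.

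Among the 16 differentiation genes were some of the highest scores of the set. Ca_21274, given above, was 1 of them. The next, Ca_03732, Ca_09387 and Ca_26482, all named after their values were seen, had 7469, 4728 and 3654 FPKM at S7, against 27.6, 35.6 and 53.1 FPKM at S5, and each was under 1 FPKM in leaf. At S5, 10 of the 16 were past 2-fold over S4 and 1 was lower. The list of genes in seed weight loci held 16 of the 300 (5.33%), beside 3.74% of all genes and 4.94% of those higher at S7, and these included Ca_09330 and Ca_12848. The study's list of genes with both a methylation difference and an expression difference from S5 to S7 held 39 of the 300 (13%), beside 13.8% of the genes higher at S7 than at S5.

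The nearest set for comparison were 102 genes chosen by the same rule shifted by 1 stage, high at S5, S6 and S7 and low at S1 to S4 and in leaf. The sets are not separate, since 47 genes were in both, which is 15.7% of the 300 and 46.1% of the 102. The desiccation, grain filling, differentiation and cell cycle lists held 6.86%, 3.92%, 8.82% and 0.98% of the 102. They held 2.33%, 1.33%, 5.33% and 0.667% of the 300. The 300 had medians of 6.19, 15.5, 289.9 and 342.9 FPKM at S4 to S7 and 4.81 FPKM in leaf. The other 55 of the 102 had medians of 8.05, 304, 855 and 509 FPKM at S4 to S7 and 0.252 FPKM in leaf. Of the 300, 116 were lower at S7 than at S6 (38.7%), and of the 55, 32 were. The median difference, S7 minus S6, was 0.09 on the log2(FPKM + 1) scale for the 300. It was −0.07 for the 55 and 0.02 for all 102. The 55 remained after genes far higher at S6 and S7 than at S5 were taken out. Their higher S5 level, and lower S6 or S7 levels relative to it, follow in part from that split. None of these differences was tested.

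Consecutive identifiers met the rule together at times. Of the 273 genes whose next identifier was also measured, 4.03% were followed by another of the 300, beside the 1.19% of all genes that the set makes up. These were 11 pairs over 21 genes, with 1 run of 3, Ca_14428 to Ca_14430. Levels within a pair mostly differed. Ca_04763 had 7080 FPKM at S7 beside 403 FPKM for Ca_04762, and Ca_08212 had 7790 FPKM beside 1245 FPKM for Ca_08211. Ca_27588 and Ca_27589 were alike in every late value, with 119 and 108 FPKM at S7 and 151 and 122 FPKM at S6, so that shared reads between similar copies cannot be told apart from separate expression. All pairs were named after their values were seen.

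Some identifiers had further entries. The rule kept the entry with the highest mean for each identifier, so these were passed over and their scores were not used. A second entry existed for 36 genes, and 34 of these reached 1 FPKM in some group. Of the 34, 27 were higher at both late stages than in every earlier group, 19 of them with a score of at least 2. Of the 905 such entries of other genes, 215 were higher at both late stages than in every earlier group (23.8%) and 15 had a score of at least 2. Of the 258 among these whose gene was at least 2-fold higher at S7 than at S5, 113 were (43.8%). The other 7 of the 34 were not. The second entry of Ca_12727, chosen after its values were seen, had 71.1 FPKM at S7 and 60.5 FPKM at S6, against 1041 FPKM in leaf, whereas the entry in the set had 2376 FPKM at S7 and 1557 FPKM at S6, against 35.6 FPKM in leaf.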

How the data were processed

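RNA-seq reads from 24 samples were processed by the authors, who quality-filtered them (NGS QC Toolkit), aligned them by TopHat against the annotated kabuli genome and had Cufflinks estimate FPKM for each gene. They deposited 1 FPKM column per group of 3 samples, and how the samples were pooled is not given in the sources used here. Read depth is unknown and no interval was computed. Of 35234 entries, 26305 carry a single identifier, and the entry with the highest mean was kept for each of 25111 genes. Values were used as deposited, as log2(FPKM + 1), in Python 3.11.15 with pandas 2.3.3 and numpy 2.4.6. The counting was tested on simulated data. The members and lists were chosen with earlier results of these data known. Named genes were the 10 highest scores, the last gene inside and the first outside, the 5 highest at S7, the 3 largest rises and the 3 largest falls from S6 to S7, the 3 largest rises from S4 to S5, the 3 highest in leaf, and by score 5 desiccation and 3 grain filling genes. The process, locus and methylation lists came from the study as identifiers only. Alternatives changed the pseudocount, scaling, minimum level, score limit, limit of 300, fold limit and treatment of repeated, joined and zero entries.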

Additional observations from a re-analysis of the deposited data

Results flagged for a closer look

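The same pattern occurred in entries that the comparisons above did not use. Of 1661 entries that join several gene identifiers, 54 met the rule. The highest score among them was that of the entry joining Ca_22522 and Ca_22523, with 0.524 FPKM at S5, 2017 FPKM at S6 and 1106 FPKM at S7, and it was listed at 0 at S1 to S4 and in leaf. Of 7268 entries with no gene identifier, 61 met the rule, led by XLOC_023389 with 0.464 FPKM at S5, 1039 FPKM at S6 and 758 FPKM at S7.

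Of the 7455 genes listed at 0 at S5, 4 met the rest of the rule. Ca_06966 had 13153 FPKM at S6 and 19108 FPKM at S7 although it was listed at 0 at S5, between 1887 FPKM at S4 and these levels, and it had 1993 FPKM in leaf. The others were Ca_07751, with 13.0 FPKM at S4, 3058 FPKM at S6 and 1350 FPKM at S7, Ca_06965, with 47.8 FPKM at S4, 5031 FPKM at S6 and 1742 FPKM at S7, and Ca_04574, with 26.1 FPKM at S6 and 48.1 FPKM at S7 and 0 in all other groups. Whether these zeros are failed estimates was not tested.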

How the results depend on the processing

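Across 19 alternatives, 185 values were recomputed, with the genes chosen anew unless said otherwise, and 161 stayed within 1.5 times the reported value or, for the median difference between S7 and S6, within 0.1 on the log2 scale. Some of the 161 could not differ, since the number that met the rule is counted before the limit of 300 or any removal of genes. The values also include how many of the 300 genes each new choice kept. The number of genes that met the rule was 180 after scaling by sums, 291 after scaling by upper quartiles and 194 with a score of at least 3. With a 4-fold limit, 0 genes were higher and 1 lower at S7 than at S6, 9 were higher at S2 than at S1, 21 lower at S3 than at S2 and 9 higher at S4 than at S3. With a pseudocount of 5 these last 3 counts were 22, 34 and 21, and 19, 32 and 18 with the same 300 genes kept. With the same 300 genes scaled by sums, 72 were higher at S2 than at S1. For these steps between S1 and S4 the shares over all genes were not computed under the alternatives. The number of genes under 1 FPKM everywhere before S6 was 7 with a minimum of 50 FPKM at S6 and S7, 26 with no minimum and 9 with genes holding a value of 0 left out. The desiccation list held 4 of the genes after scaling by sums, 4 with a score of at least 3, and 2 when limited to its entries with a methylation difference. Leaving out the most abundant gene gave 24.6% of the sum at S7. That alternative, the minimum of 1 FPKM at S4, the settings that keep the same 300 genes and the counts between S1 and S4 were chosen after seeing the data. No paired analysis was possible because each group was deposited as 1 pooled column, and for the same reason no sample could be left out.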
